A study of Homo sapiens with 4 samples.

Results

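Tubulins are the proteins from which microtubules, the hollow filaments of the spindle and the cytoskeleton, are built. Of the 57773 rows of the authors' deposited table, 10 were the tubulin genes examined here, a list of named isotypes whose rows were found by symbol: the alpha isotypes TUBA1A, TUBA1B, TUBA1C and TUBA4A, the beta isotypes TUBB, TUBB2A, TUBB2B, TUBB4B and TUBB6, and the gamma gene TUBG1. RNA had been sequenced from KMS12PE and KMS11, which are established human multiple myeloma cell lines, after exposure to OSSL_325096 at 1 µM, a compound that the labels give by code alone, or to its solvent DMSO. There were 2 libraries with OSSL_325096 and 2 with DMSO, 1 from each line in either group, so that each line alone had no replicate, and how long the treatment lasted is not stated. Both groups were grown in serum-containing medium, and nothing in the labels says whether the libraries came from separate cultures beyond the difference of line. The authors' table gave each gene 1 fold change over both lines, its p-value and the mean RPKM (reads scaled by transcript length and library size) of whichever treatment group was higher. Single libraries were not analysed here, so no spread between libraries is given, and depth is unknown. Positive log2 fold changes mean higher with OSSL_325096, as the title of the table puts the compound before DMSO and no column says so. Plasma cell genes fixed as markers were high, from 11.4 RPKM for CD38 to 386 RPKM for IGJ per the authors' deposited table, while the T cell, early B cell and monocyte markers were all below 0.1 RPKM.

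Alpha and beta tubulin form the dimer that polymerises, and cells hold several isotypes of each that differ mainly near the carboxyl end, the tail that enzymes modify and that motor proteins meet at the microtubule surface. Gamma tubulin is not part of the filament wall; it sits in a ring complex that starts new microtubules. Tubulin mRNAs are under a particular control: when free dimers are plentiful, the factor TTC5 recognises the opening residues of a nascent alpha or beta chain on the ribosome, and the mRNA is degraded. The coding starts of the members are shown because those of the alpha and beta genes encode that signal, and TUBG1 is set beside them. Capitals mark the first 12 bases of the coding sequence and lower case the next ones, up to base 24, in the canonical transcript of GENCODE 44 mapped to GRCh37.
TUBA1A: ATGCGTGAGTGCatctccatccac
TUBA1B: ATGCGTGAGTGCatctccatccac
TUBA1C: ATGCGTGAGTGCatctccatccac
TUBA4A: ATGCGTGAATGCatctcagtccac
TUBB: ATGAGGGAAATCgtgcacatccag
TUBB2A: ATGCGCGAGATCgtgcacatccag
TUBB2B: ATGCGTGAGATCgtgcacatccag
TUBB4B: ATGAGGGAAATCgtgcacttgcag
TUBB6: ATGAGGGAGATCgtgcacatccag
TUBG1: ATGCCGAGGGAAatcatcacccta
The 9 alpha and beta members had 6 different starts over the first 12 bases, 2 among the alpha and 4 among the beta genes. These differences do not change the encoded residues. All alpha starts encode Met-Arg-Glu-Cys, and all beta starts encode Met-Arg-Glu-Ile. TUBB and TUBB4B shared those 12 bases and differed after them, and TUBA1A, TUBA1B and TUBA1C were identical over all 24 bases. The start of TUBG1 was found in none of them.

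The 10 listed tubulin genes lay on the high side of the comparison, though none passed a test, led by the beta gene TUBB4B and the alpha gene TUBA1C, while the most abundant isotypes, TUBA1B and TUBB, had smaller fold changes. All 10 members had a log2 fold change above 0 per the authors' deposited table, and 9 of them reached 1 RPKM, the minimum used below. The list was chosen with earlier results of these data known, so the shared sign is no independent evidence. Of the 5 other tubulins of at least 1 RPKM, 3 were above 0. Over these 9 the median log2 fold change was 0.42, against 0.01 over all 11324 genes of at least 1 RPKM, of which 51.0% were above 0. At least 1.5-fold higher with OSSL_325096 were 3 of the 9, TUBB4B, TUBA1C and TUBA4A, against 4.95% of all genes of that level, and 0 were 1.5-fold lower, against 4.95%. In bulk RNA a different share of cells rich in tubulin mRNA and a different amount per cell cannot be told apart. A fold of 2 was passed by TUBB4B alone, against 0.989% of all genes. For every member, the authors' deposited table put the false discovery rate at 0.999995, as for all 23130 genes with a fold change, so that 0.0% of the genes of at least 1 RPKM were called. Without adjustment, 0 of the 10 members had a p-value under 0.05, against 0.0442% of the genes of at least 1 RPKM. The members' unadjusted p-values ran from 0.305 for TUBB4B to 0.956 for TUBA1A per the authors' deposited table.

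An implied standard error was worked out for each gene by dividing the size of its log2 fold change by the normal quantile that fits the deposited p-value. It holds only if that p-value came from a two-sided normal test, which no header states, and its median over the 11324 genes of at least 1 RPKM was 1.10 on the log2 scale. Across the members it ran from 0.91 for TUBG1 to 1.83 for TUBB6. TUBB4B was the only member whose log2 fold change exceeded its implied standard error, and all 10 implied 95% intervals held 0. Both statements restate the deposited p-values and are no separate evidence.

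**Figure D1:**
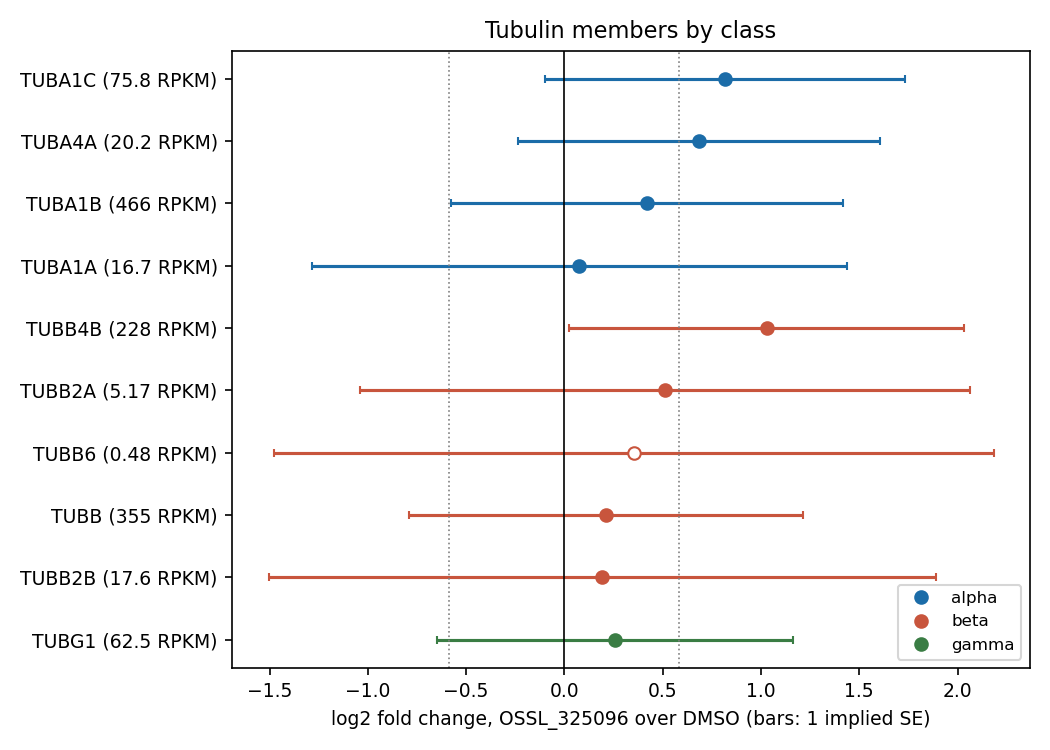
Horizontal axis, log2 fold change (OSSL_325096 over DMSO) of the 10 tubulin genes, grouped as alpha, beta and gamma, with the group mean in RPKM beside each name. Points are the deposited values, bars are 1 implied standard error, the open point is below 1 RPKM and dotted lines mark 1.5-fold; every point is right of 0 and only the bar of TUBB4B does not reach it.

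The alpha genes were dominated by TUBA1B, the isotype that many dividing cells use most. TUBA1B (ENSG00000123416, chromosome 12, 49521565 to 49525180, minus strand, hg19) stood at 466 RPKM with a log2 fold change of 0.42 per the authors' deposited table (implied SE 1.00). It made up 80.5% of the summed alpha RPKM. TUBA1C (chromosome 12, 49582519 to 49667114, plus strand), a close relative and neighbour, had 75.8 RPKM per the authors' deposited table. Its fold change was 1.76 (log2 0.82, implied SE 0.92, unadjusted p = 0.373 in the authors' deposited model), rank 216 from the top among the 11324 genes. TUBA4A (chromosome 2, 220114433 to 220142892, minus strand), the alpha isotype that platelets and neurons are known for and whose coding sequence lacks the tyrosine codon that ends those of the alpha1 genes, had 20.2 RPKM and a log2 fold change of 0.68 per the authors' deposited table (implied SE 0.92). TUBA1A (chromosome 12, 49578579 to 49583107, minus strand), the main alpha isotype of developing neurons, had 16.7 RPKM and the smallest value of the 10 members, a log2 fold change of 0.08 per the authors' deposited table (implied SE 1.36). The alpha1 genes stand side by side within 145.55 kb, and their log2 fold changes ran from 0.08 to 0.82.

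Among the 5 listed beta genes, TUBB and TUBB4B carried nearly all the signal. TUBB (ENSG00000196230, chromosome 6, 30687978 to 30693203, plus strand), the common beta isotype of dividing cells, had 355 RPKM and a log2 fold change of 0.21 per the authors' deposited table (implied SE 1.00). TUBB4B (ENSG00000188229, chromosome 9, 140135665 to 140138159, plus strand), a widely expressed beta isotype that is also used in cilia, had 228 RPKM per the authors' deposited table. Its fold change was 2.04 (log2 1.03, implied SE 1.00), with an implied 95% interval from -0.94 to 2.996 on the log2 scale. It ranked 105 from the top among 11324 genes. Of the 394 genes at 100 RPKM or more, 4 were at least 2-fold higher (1.02%), and TUBB4B was one of them. The others were the HSP70 chaperone gene HSPA8, the mitotic activator gene CDC20 and UBE2S, which encodes a ubiquitin-conjugating enzyme of the anaphase-promoting complex. That level is the mean of the higher group, so such a gene can reach it through the OSSL_325096 group alone. The 2 beta2 genes were low: TUBB2B (chromosome 6, 3224495 to 3231964), known from neurons, had 17.6 RPKM and a log2 fold change of 0.19 (implied SE 1.70), and TUBB2A (chromosome 6, 3153903 to 3157760) had 5.17 RPKM and 0.51 (implied SE 1.55) per the authors' deposited table. TUBB6 (chromosome 18, 12307668 to 12344319), a beta isotype known from regenerating muscle, was nearly silent at 0.48 RPKM, with a log2 fold change of 0.35 per the authors' deposited table (implied SE 1.83). TUBG1 (chromosome 17, 40761694 to 40767252), the ubiquitous gamma gene, had 62.5 RPKM and a log2 fold change of 0.26 per the authors' deposited table.

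**Figure D2:**
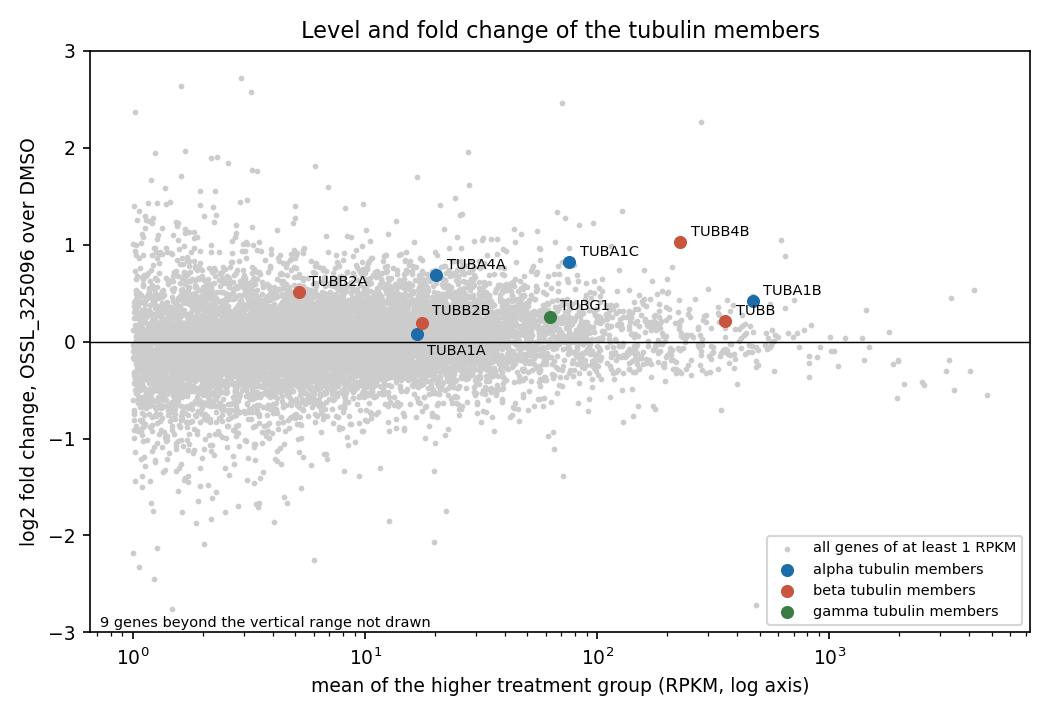
Group mean of the higher treatment group in RPKM (horizontal, log axis) against the log2 fold change of OSSL_325096 over DMSO (vertical) for all genes of at least 1 RPKM in grey and the 9 tubulin members of that level in colour; 9 genes lie beyond the vertical range. TUBB4B, at 228 RPKM and 1.03, stands above nearly all genes of similar level, and TUBA1B and TUBB, at 466 and 355 RPKM, are nearer to 0.

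Because RPKM is scaled by transcript length, levels can be added across isotypes. The 4 alpha genes summed to 579 RPKM and the 5 beta genes to 606 RPKM, a ratio of 0.955. With TUBB3 and TUBB4A, beta isotypes outside the 10, the beta sum was 659 RPKM and the ratio 0.878. Since every member had a positive fold change, each of these means would be that of the OSSL_325096 group. Dividing each by its fold change gives what the DMSO group would hold if the fold were the ratio of the group means, which the file headers do not state. On that reading the sum of the 4 alpha genes was 579 RPKM with OSSL_325096 and 420 RPKM with DMSO, a 1.38-fold ratio. The sum of the 5 listed beta genes was 606 RPKM with OSSL_325096 and 438 RPKM with DMSO, also 1.38-fold. TUBB3 and TUBB4A are not in that sum, and by the same division they would have 21.6 and 5.96 RPKM with DMSO. Their fold changes, 2.04 and 1.55, were both above 1.38, so the beta ratio with them would be higher. Of the RPKM of the 5 listed beta genes, TUBB4B would make up 37.6% with OSSL_325096 and 25.5% with DMSO. TUBB would make up 58.6% with OSSL_325096 and 70.1% with DMSO, and with TUBB3 and TUBB4A counted all these shares would be smaller. The shares of alpha RPKM would differ less, with TUBA1C at 13.1% with OSSL_325096 and 10.2% with DMSO. No error can be given for these sums and shares.

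Near-identical sequence limits how well reads can be assigned to single isotypes. Coding sequences of TUBA1A and TUBA1B were identical at 97.2% of aligned positions, TUBA1B and TUBA1C at 96.8%, and TUBB2A and TUBB2B at 98.2%. Other beta pairs lay between 80.9% and 87.3%, alpha against beta pairs between 53.4% and 55.8%, and TUBG1 against the others between 50.9% and 54.7%. The ends of 3 beta coding sequences, the 60 bases before the stop codon that encode most of the tail, show the contrast; capitals mark bases that differ from TUBB2A at the same place.
TUBB2A: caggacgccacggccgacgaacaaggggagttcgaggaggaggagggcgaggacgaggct
TUBB2B: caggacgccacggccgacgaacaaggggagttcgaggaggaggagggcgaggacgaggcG
TUBB4B: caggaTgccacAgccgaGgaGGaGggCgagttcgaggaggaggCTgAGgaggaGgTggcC
TUBB2B differed from TUBB2A at 1 of these 60 bases and TUBB4B at 14. The last 60 coding bases of TUBA1A and TUBA1B were the same. In windows of 100 bases, 55.6% of the TUBB2A transcript and 48.7% of the TUBB2B transcript occurred exactly in a transcript of another gene. That share was 37.2% for TUBA1B, 21.2% for TUBA1A, 15.0% for TUBG1 and 12.3% for TUBA1C. It was low for TUBB (5.42%), TUBB4B (3.01%), TUBA4A (1.95%) and TUBB6 (0.0%). The separate values of TUBA1A, TUBA1B and TUBA1C, and of TUBB2A and TUBB2B, are uncertain for this reason, since how the authors' counting placed such reads is not stated. The 3 members of at least 1 RPKM with at most 10% shared windows of 100 bases were TUBA4A, TUBB and TUBB4B. They had log2 fold changes between 0.21 and 1.03 with a median of 0.68. That set depends on the window, since in windows of 50 bases TUBB (19.3%) and TUBB4B (10.4%) passed 10% and TUBA4A (5.55%) did not.

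Several members also overlap other genes on the opposite strand, and whether the counting used strand is not stated. TUBA1C and TUBA1A overlap by 589 bases. RP11-386G11.10 (1.68 RPKM, log2 fold change 0.70 per the authors' deposited table) spans all of TUBA1B. TUBB4B overlaps the nearly silent FAM166A (0.144 RPKM per the authors' deposited table) by 124 bases. TUBB6, at 0.48 RPKM, overlaps by 15377 bases the more abundant AFG3L2, which had 36.4 RPKM per the authors' deposited table. For the leading members, neighbouring genes were not all alike. Within 100 kb of TUBB4B, 12 other genes of at least 1 RPKM had log2 fold changes from -0.88 to 0.83 with a median of 0.20, all below that of TUBB4B. Within 100 kb of TUBA1C, 6 genes ran from -0.13 to 0.96, the highest being TROAP, a spindle-associated protein gene (23.0 RPKM, 0.96 per the authors' deposited table). Those 6 include the members TUBA1A and TUBA1B, whose sequences are close to that of TUBA1C, and RP11-386G11.10.

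Fold changes in this comparison went with the GC content of the transcripts (Spearman rho 0.47 across 11104 genes, which share the same 4 libraries), and all 9 measured members had a GC content above the median gene, 50.2%. TUBB4B, at 59.4%, fell in the highest of 5 equal groups of genes by GC content, where the median log2 fold change was 0.23 and 11.7% of genes were at least 1.5-fold higher. TUBA4A (56.7%), TUBG1 (57.7%), TUBB2A (56.3%) and TUBA1B (54.4%) were in the group below it, with a median of 0.13. TUBA1C (51.2%), TUBA1A (51.2%), TUBB (52.5%) and TUBB2B (52.2%) were in the middle group, with a median of -0.0028. With a trend in GC content, transcript length and level removed, the log2 value was 0.85 for TUBB4B, 0.77 for TUBA1C, 0.53 for TUBA4A, 0.38 for TUBA1B and 0.07 for TUBG1. The value was 0.39 for TUBB2A, 0.17 for TUBB, 0.10 for TUBB2B and 0.02 for TUBA1A. All 9 values stayed above 0, as did 50.2% of all genes with the trend removed, and the members' median was 0.38. At least 1.5-fold higher were still 2 members, TUBB4B and TUBA1C, against 3.43% of genes.

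**Figure D3:**
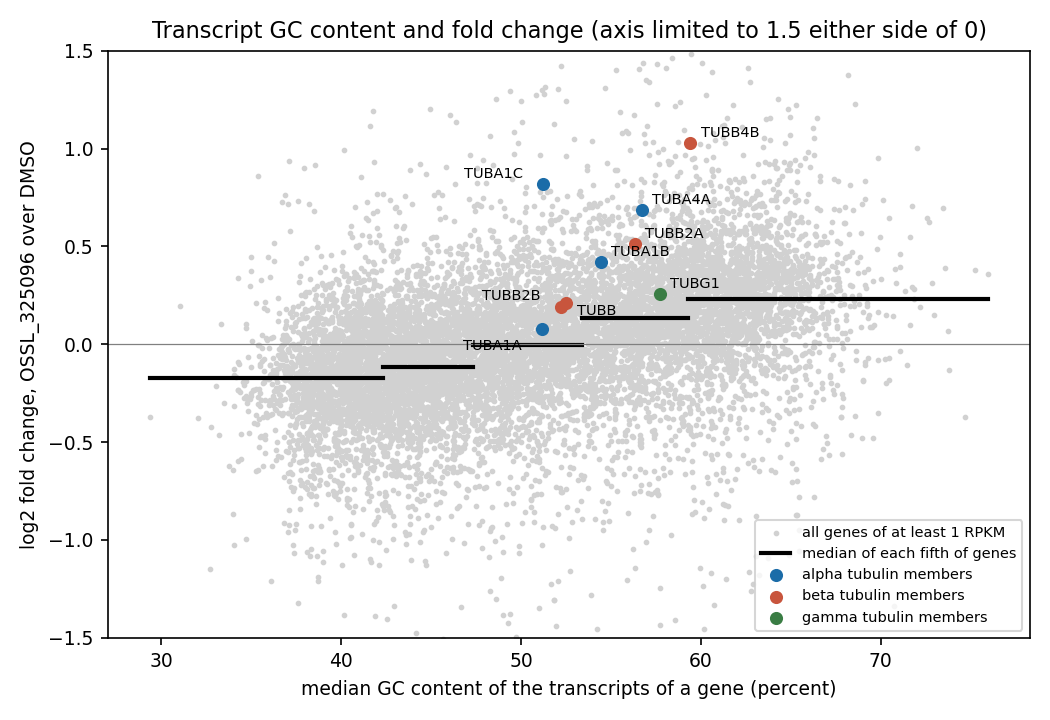
Median GC content of a gene's transcripts in percent (horizontal) against log2 fold change of OSSL_325096 over DMSO (vertical, limited to 1.5 either side of 0) for genes of at least 1 RPKM. Black bars are the medians of 5 equal groups of genes by GC content, from -0.17 to 0.23; TUBB4B at 1.03, TUBA1C at 0.82 and TUBA4A at 0.68 lie well above the bars of their groups.

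Other tubulin genes did not all follow the members. TUBB3 (listed as TUBB3_2, ENSG00000258947, chromosome 16, 89987800 to 90005169), a beta isotype of neurons that many tumour cells also express, had 44.1 RPKM and a fold change of 2.04 per the authors' deposited table (implied SE 1.35). An overlapping row on the same strand, TUBB3_1, had 0.50 RPKM and a log2 fold change of 0.77 per the authors' deposited table. Some 100-base windows of TUBB2A, TUBB2B and TUBB4B also occur in TUBB3, so its separate value is uncertain too. TUBB4A, a beta isotype of the brain, had 9.23 RPKM and a log2 fold change of 0.63 per the authors' deposited table (implied SE 1.72). The second gamma gene TUBG2 had -0.12, the epsilon gene TUBE1, whose product belongs to centrioles, -0.53 and the delta gene TUBD1 0.09 per the authors' deposited table. Thus 2 of the 5 other tubulins of at least 1 RPKM were at least 1.5-fold higher and 0 lower, where 4.95% of all genes of that level were higher and 4.95% lower.

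Genes that act on tubulin were next set beside the members, in 10 lists that count the other tubulins as one; the list counts below stand against 4.95% of all genes of at least 1 RPKM in each direction. The gamma tubulin ring complex and its recruiters had 0 of 12 measured genes past 1.5-fold in either direction and a median of -0.0067. TUBGCP6 and TUBGCP3, ring subunits, had 0.30 and -0.20, and the small ring protein gene MZT1 0.20 per the authors' deposited table. Augmin, which recruits the ring to spindle microtubules, had 0 of 8 past 1.5-fold with a median of -0.11; HAUS7 had 0.58, HAUS2 -0.41 and HAUS1 -0.35 per the authors' deposited table.

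Folding of new tubulin needs prefoldin, the chaperonin TRiC and the cofactors TBCA to TBCE. Of 15 cofactor and prefoldin genes 0 were past 1.5-fold in either direction, with a median of 0.03; the prefoldin genes PFDN2 and PFDN4 had 0.43 and -0.40 per the authors' deposited table, and TXNDC9, a regulator of chaperonin folding, -0.40. All 8 TRiC subunit genes were also within 1.5-fold, with a median of 0.20. Above 0 were 7 of them, against 51.0% of all genes of at least 1 RPKM. TCP1, CCT6A and CCT3 had 0.32, 0.32 and 0.25 per the authors' deposited table. The tubulin mRNA decay list, TTC5 with its partner SCAPER and the CCR4-NOT deadenylase, had a median of -0.07 over 11 genes, with 0 at least 1.5-fold higher and 1 lower. That gene was the deadenylase CNOT6L at -0.85, followed by CNOT8 at -0.58, while CNOT3 had 0.36 per the authors' deposited table. TTC5 itself, named here after its value was seen, was barely expressed at 1.15 RPKM with a log2 fold change of -0.0015 per the authors' deposited table.

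Enzymes that modify tubulin tails or lysines had 0 of 12 genes past 1.5-fold and a median of 0.16; TTLL12 had 0.55, the deglutamylase gene AGTPBP1 -0.37 and the deacetylase gene SIRT2 0.17 per the authors' deposited table. Of 5 severing enzyme genes 0 were above 0, against 51.0% of all genes of at least 1 RPKM, and 1 was at least 1.5-fold lower. That was FIGNL1 at -0.84, with KATNA1 at -0.29 and KATNAL2 at -0.22 per the authors' deposited table. With the trend in GC content, transcript length and level removed, the 5 values ran from -0.70 to 0.0081. Microtubule stabilisers, plus-end and spindle proteins had 2 of 21 genes at least 1.5-fold higher and 0 lower, with a median of 0.12. These were the spindle gene TACC3 (log2 fold change 0.82, 44.6 RPKM) and MAP1A (1.40, 4.97 RPKM), which was named after its value was seen, per the authors' deposited table. MAP1S and the spindle assembly factor TPX2 had 0.47 and 0.40 per the authors' deposited table. The stathmin genes STMN1 and STMN3, whose products bind free dimers, had -0.22 and 0.18 per the authors' deposited table. None of these genes had an unadjusted p under 0.05. The medians differed with the trend in GC content, transcript length and level removed, where the members had 0.38. The other tubulins then had 0.32, the ring complex -0.10, augmin -0.11, folding cofactors and prefoldin 0.04 and TRiC 0.27. The decay list had 0.10, modifying enzymes 0.03, severing enzymes -0.18, stabilisers and spindle proteins 0.10 and stathmins -0.11.

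**Figure D4:**
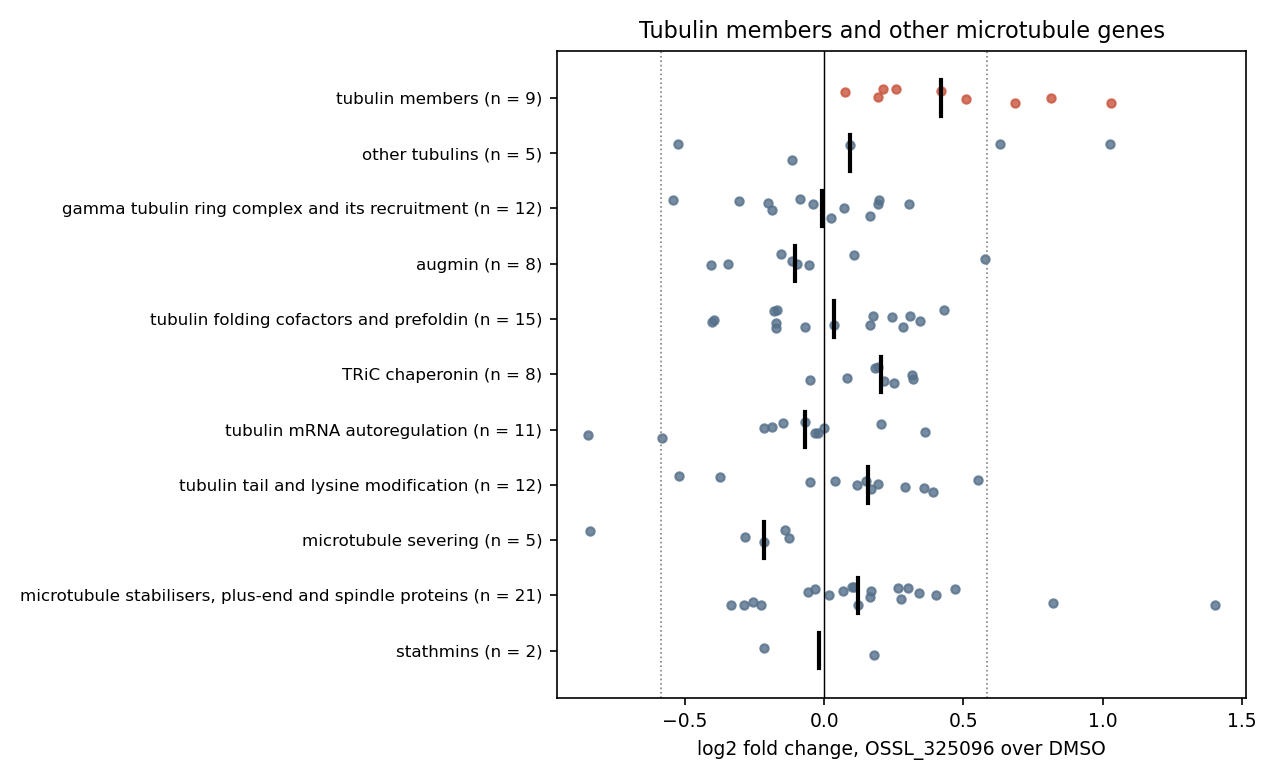
Horizontal axis, log2 fold change (OSSL_325096 over DMSO) of each gene of at least 1 RPKM among the tubulin members (red) and in 10 lists of other microtubule genes (blue); black bars are medians, and dotted lines mark 1.5-fold. The 9 members have a median of 0.42, and the lists have medians from -0.22 for severing enzymes to 0.20 for TRiC.

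Promoter windows from 250 bases before to 50 after each start were available for all 10 members in RefSeq (GRCh38.p14), 14 windows in all, with 3 for TUBA1C, of which the first 2 overlap, and 2 each for TUBB and TUBB6. The 2 members with the highest fold changes and the one with the lowest are printed, for TUBA1C the third window, the only one of its windows with GGGCGG. Capitals mark matches on either strand to the CCAAT box (its own letters), to TTTGAA, the cell cycle homology element of many mitotic genes, to GAANNTTC, a pair of heat shock element units, and to GGGCGG, the GC box. TUBB4B lies at chr9:137241037-137241336 on the plus strand, TUBA1C at chr12:49264832-49265131 on the plus strand and TUBA1A at chr12:49189031-49189330 on the minus strand.
TUBB4B: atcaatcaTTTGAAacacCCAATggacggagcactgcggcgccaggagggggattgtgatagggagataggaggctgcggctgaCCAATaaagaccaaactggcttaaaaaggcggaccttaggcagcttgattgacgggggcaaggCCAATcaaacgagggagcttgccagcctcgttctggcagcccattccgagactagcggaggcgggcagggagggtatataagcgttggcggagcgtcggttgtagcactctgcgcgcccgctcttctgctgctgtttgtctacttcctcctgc
TUBA1C: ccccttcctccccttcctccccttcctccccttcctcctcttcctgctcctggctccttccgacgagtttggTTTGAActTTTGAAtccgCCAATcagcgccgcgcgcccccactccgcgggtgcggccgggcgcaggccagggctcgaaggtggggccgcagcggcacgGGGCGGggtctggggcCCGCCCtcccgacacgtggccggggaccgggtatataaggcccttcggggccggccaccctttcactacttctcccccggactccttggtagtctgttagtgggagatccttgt
TUBA1A: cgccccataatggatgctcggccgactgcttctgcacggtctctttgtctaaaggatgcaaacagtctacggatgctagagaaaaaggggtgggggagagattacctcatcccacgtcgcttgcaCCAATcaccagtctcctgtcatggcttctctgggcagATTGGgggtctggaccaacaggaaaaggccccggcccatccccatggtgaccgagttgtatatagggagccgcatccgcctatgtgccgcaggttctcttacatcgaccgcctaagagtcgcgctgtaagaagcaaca
TTTGAA was found in 4 of the 14 member windows, and in 15.2% of all 35116 windows in the table. These belong to 2 members, TUBB4B and TUBA1C, and include every window of TUBA1C. CCAAT was in 9 of the 14 windows, from 7 members, against 34.6% of all windows. GGGCGG was also in 9 of the 14, from 8 members, against 45.0% of all windows. TUBB4B had 3 CCAAT matches, at 232, 166 and 103 bases before its start, and its TTTGAA match at 242 before it. In the third window of TUBA1C the 2 TTTGAA matches stood 178 and 170 bases before the start, with CCAAT at 160. GAANNTTC was in 3 of the 14 windows, from TUBA1C and TUBB, and in 6.77% of all windows. In the 2 overlapping windows of TUBA1C it is the same site counted in both, and so is their CCAAT match. The window counts of these motifs are higher for that reason. Shares by gene were not computed over all genes, so the counts by member have no background here. A match is a run of letters and does not show that a factor binds there.

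**Figure D5:**
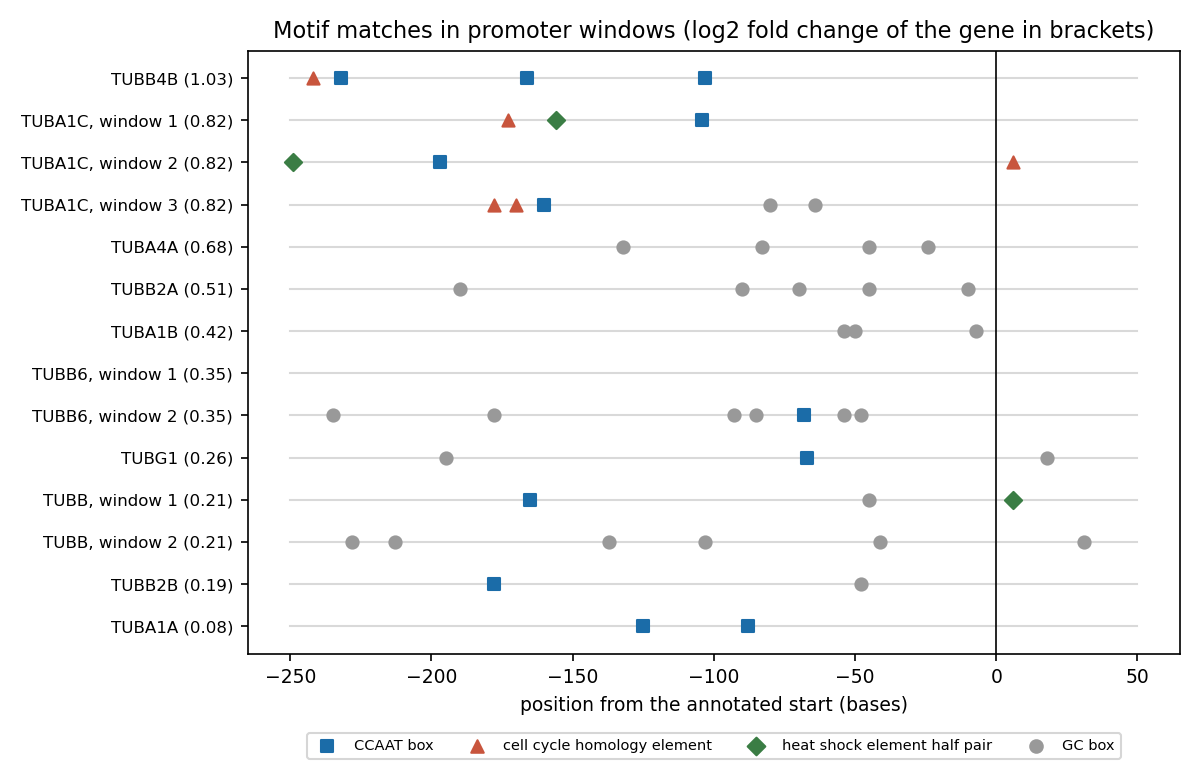
Positions of motif matches (symbols) in the 14 promoter windows of the members, in bases from the annotated start (horizontal axis), ordered from the highest log2 fold change (TUBB4B, 1.03) at the top to the lowest (TUBA1A, 0.08). Triangles mark TTTGAA, the letters of the cell cycle homology element. They occur in 4 of the 14 windows, from TUBB4B and every window of TUBA1C, against 15.2% of all promoter windows. By gene that is 2 of the 10, and a gene with more windows has more chances of a match. Grey circles, GC boxes, occur in 9 of the 14 windows, against 45.0% of all promoter windows. Shares by gene over all genes were not computed.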

How the data were processed

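RNA of 4 libraries was sequenced after oligo(dT) capture, per the labels' protocols. Per the series' design text, Biomedical Genomics Workbench 5 served for mapping to hg19, expression values and the comparison. How reads were counted, whether strand was used, the scaling and the test are not stated there. The RPKM column was deposited by the authors and is the mean of whichever treatment was higher. The log2 fold change over both lines was deposited by the authors, as was the same quantity as a signed fold score. The p-value, false discovery rate and Bonferroni columns were deposited by the authors. The planned limma fit needs single libraries, so the deposited values took its place. Genes of at least 1 RPKM were kept (11324).

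Counts at 1.5-fold, medians and implied standard errors were computed from these values. GC content and length were medians over GENCODE 44 transcripts, and a polynomial regression of degree 3 on both and on level took out their trend (15.8% of variance), a step tested on simulated data. No protein sequences were used here. Named list genes are the up to 3 of at least 5 RPKM with the largest absolute log2 fold change in each list; all members and other tubulins of at least 1 RPKM are named. Members and lists were chosen with earlier results of these data known. Alternatives were other RPKM minimums and folds, centring and the trend. Python 3.11.15, pandas 2.3.3, numpy 2.4.6, scipy 1.17.1, Biopython 1.88 and matplotlib 3.10.9 were used.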

Additional observations from a re-analysis of the deposited data

How the results depend on the processing

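The 3 members at least 1.5-fold higher (against 4.95% of genes) were also counted 3 with no minimum on RPKM (against 19.8% of 23130 genes), with a minimum of 5 RPKM (4.51%) and after centring on the median gene (4.75%), 2 after the GC, length and level trend was taken out (3.43%), 5 under the lower of the other folds tried (16.4%) and 1 at 2-fold (0.989%). The members' median of 0.42 was 0.39 with no minimum, 0.42 at 5 RPKM, 0.41 centred and 0.38 with the trend removed. It was 0.68 without members that share over 10% of their 100-base windows with another gene, an alternative chosen after seeing the data that leaves 3 genes. Of the 18 single values under centring or trend removal, 0 were below 0, and each moved by less than its implied standard error. For centring both outcomes were fixed in advance. It took 0.00868 off every gene, while the smallest member value was 0.08 and the smallest implied standard error of a member was 0.91. For trend removal a move beyond the implied standard error was hardly possible, as the medians of the 5 GC groups ran only from -0.17 to 0.23. With the trend removed, 50.2% of all genes were above 0. With the deposited false discovery rate, with Benjamini-Hochberg adjustment over the genes of at least 1 RPKM and with unadjusted p-values, 0 members were under 0.05. No paired analysis was possible because the table holds no values of single libraries; for the same reason leaving out a library and other pseudocounts were not run. Leaving out members with a pseudogene of at least 1 RPKM was not run, since 0 tubulin pseudogenes reached that level. Depth is unknown, and nearly identical isotypes limit the separate values of the alpha1 and beta2 genes.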

Other observations

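Of 38 tubulin pseudogenes in the table, 32 were listed at 0 RPKM, and the highest, TUBBP5, had 0.790 RPKM in the authors' deposited table. Alpha isotypes known from testis were near 0: TUBA3D had 0.310 RPKM with a log2 fold change of 1.57 (implied SE 1.71), TUBA3C 0.054 RPKM with 3.18 (implied SE 3.05) and TUBA3E 0.060 RPKM with -0.00029 (implied SE 1.73) in the authors' deposited table. The platelet isotype TUBB1 had 0.258 RPKM in the authors' deposited table.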
